A study of Rattus norvegicus with 12 samples.

Results

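The 9 genes described here, of 37209 listed in the count table, were chosen by name because they mark striatal projection neurons or encode dopamine receptors. They are the dopamine receptor genes Drd1, Drd2 and Drd3, the adenosine receptor gene Adora2a, the signalling genes Ppp1r1b and Rgs9, and the transcription factor genes Foxp1, Foxp2 and Bcl11b. Their RNA was measured by poly-A RNA-Seq in punches of the central nucleus of the amygdala (CeA) from 12 adult male rats of the Sprague Dawley strain, all wild type and 14 to 16 weeks old. The 6 CIE rats (rats 1 to 6) lived through several weeks of chronic intermittent ethanol vapor, which alternated each day with air, and were killed as the last vapor period ended. The 6 Control rats (rats 7 to 12) breathed air only. Each library came from a punch of 1 hemisphere of 1 rat, and the question of the comparison was how CIE changes gene expression in the CeA. Total counts were 61978486 to 78441691 in CIE and 39082548 to 95647601 in Control rats. All levels below are CPM, counts scaled to the same TMM-adjusted library total, which do not correct for gene length, so they are compared between rats and not between genes.

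Most neurons of the striatum are GABAergic projection neurons of 2 kinds. Neurons of the direct pathway carry the dopamine D1 receptor, which raises cyclic AMP, and neurons of the indirect pathway carry the dopamine D2 receptor, which lowers it, together with the adenosine receptor encoded by Adora2a, which raises it. Both kinds contain the phosphatase inhibitor DARPP (Ppp1r1b) and the G protein regulator RGS9, and depend on the transcription factors FOXP1 and BCL11B. The CeA is also largely GABAergic and of striatal origin, receives dopamine input, and lies beneath the caudate putamen and beside the basolateral amygdala, so a small tissue punch can hold neighbouring tissue. In a bulk sample, fewer cells of a type and less RNA per cell cannot be told apart.

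Upstream sequences are shown for a pair of members that went up and down together over the rats (Drd2, Rgs9) and for Drd3, which together with Foxp2 did not follow them. Each run holds the 250 bases before the start of transcription in the RefSeq annotation of rat build GRCr8, 5′ to 3′ along the gene's strand, at chr8:58605153-58605402 (plus strand) for Drd2, chr10:94770388-94770637 (minus strand) for Rgs9 and chr11:70437794-70438043 (minus strand) for Drd3. Capitals mark matches to the GC box GGGCGG or, on the other strand, CCGCCC.
Drd2: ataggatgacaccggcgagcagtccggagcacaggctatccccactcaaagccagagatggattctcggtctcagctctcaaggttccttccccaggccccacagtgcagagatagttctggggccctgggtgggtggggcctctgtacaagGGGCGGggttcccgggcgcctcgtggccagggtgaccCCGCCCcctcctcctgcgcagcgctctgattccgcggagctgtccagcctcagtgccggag
Rgs9: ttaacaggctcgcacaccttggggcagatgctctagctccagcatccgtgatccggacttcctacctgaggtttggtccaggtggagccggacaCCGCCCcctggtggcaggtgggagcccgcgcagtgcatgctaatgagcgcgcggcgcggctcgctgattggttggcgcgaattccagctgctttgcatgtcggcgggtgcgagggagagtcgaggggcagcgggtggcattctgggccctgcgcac
Drd3: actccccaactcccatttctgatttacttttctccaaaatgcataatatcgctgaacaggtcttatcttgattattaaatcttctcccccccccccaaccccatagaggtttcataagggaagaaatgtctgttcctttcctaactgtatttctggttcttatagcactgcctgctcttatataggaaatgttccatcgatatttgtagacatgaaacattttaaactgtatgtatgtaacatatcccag
Of 33469 such rat windows, 30.5% hold GGGCGG on either strand. Drd2 has 2 matches, 98 to 93 and 61 to 56 bases before the start, Rgs9 has 1, 156 to 151 bases before it, and the Drd3 window has none. The same windows were searched on both strands for TGACG (in 18.2% of all windows), TGTTTAC (3.22%) and TATAAA (12.9%), none of which is in these 3. The share of G and C was 66.0% for Drd2, 65.6% for Rgs9 and 38.0% for Drd3, against a median of 51.2% over all windows. RefSeq windows were at hand for 5 of the 9 genes. Those of Drd1 and Foxp1 start inside the annotated gene and are not shown, and Adora2a, Ppp1r1b, Foxp2 and Bcl11b are named only. The Drd1 and Foxp1 windows had 51.2% and 49.6% G and C and no GGGCGG on either strand, though both genes varied with Drd2 and Rgs9. A link between these sequences and the levels was not tested.

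No difference between CIE and Control rats was detected for any of the 9 genes. In edgeR's quasi-likelihood F test on all 20944 genes that passed the filter on low counts, all 9 members were tested, 0 passed 5% FDR and 0 had a nominal p below 0.05, and DESeq2 and limma-voom with sample quality weights likewise gave 0 members at either threshold. Over all genes tested, 0.363% passed 5% FDR (76 genes) and 8.31% had a nominal p below 0.05 (1740 genes). The smallest FDR among the members was 0.899, that of Foxp2. All 9 log2 fold changes of CIE over Control were above 0, from 0.11 to 0.27, with a median of 0.21 against 0.00 over all genes tested, but every one was smaller than its standard error. The spread between rats of the same group was wide for most of them and is described gene by gene.

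**Figure D1:**
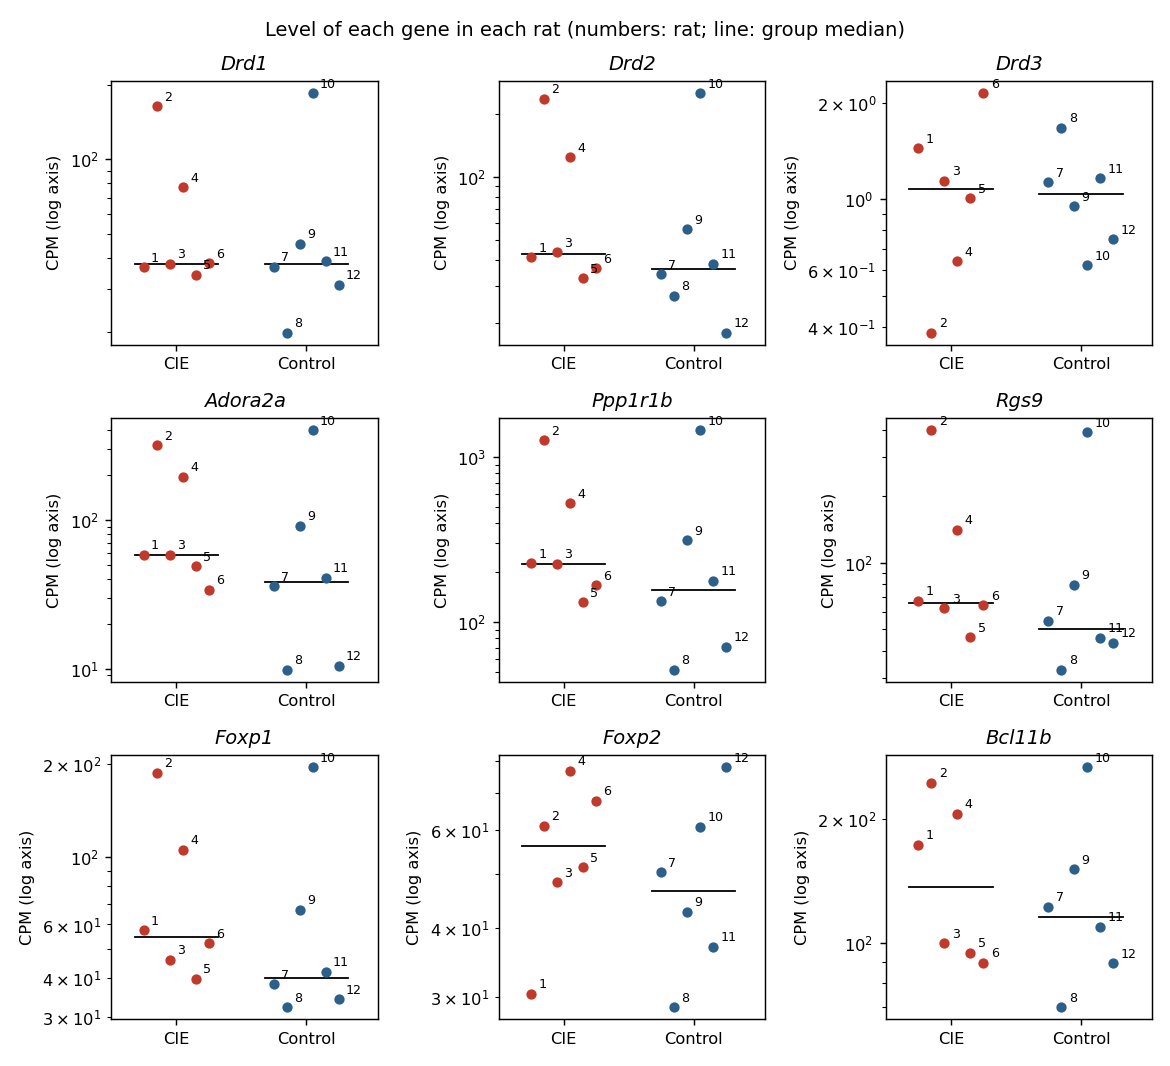
Level of each of the 9 genes in each rat, in CPM on a log axis, with CIE rats in red, Control rats in blue, numbers naming the rat and a line at the group median. Rats 2, 4 and 10 hold the 3 highest levels of every gene except Drd3 and Foxp2, and the groups overlap in all 9 panels.

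Drd1 encodes the dopamine D1 receptor of direct-pathway neurons. Its level in CIE rats was lowest at 34.2, had a median of 37.9 and was highest at 164 CPM, and in Control rats the lowest, median and highest levels were 19.9, 37.8 and 185 CPM. A single rat stood far above each group, CIE rat 2 at 4.33 times and Control rat 10 at 5.03 times the median of the other 5 rats. CIE rat 4 was the next highest at 77.0 CPM, and the other 9 rats all lay at or below 45.6 CPM. The log2 fold change was 0.12 with a 95% interval of -1.05 to 1.28 (SE 0.54, n = 6 per group, FDR 0.972). On a linear scale this interval runs from 0.483 to 2.43 times the Control level.

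Drd2, the D2 receptor gene of indirect-pathway neurons, was measured at 32.6 (lowest), 42.4 (median) and 236 CPM (highest) in CIE rats. In Control rats the corresponding levels were 17.9, 36.2 and 251 CPM. The same rats stood out as for Drd1, with CIE rat 2 at 5.70 times and Control rat 10 at 7.36 times the median of the rest of the group, and CIE rat 4 at 124 CPM. CIE and Control differed by a log2 fold change of 0.27 (SE 0.67, 95% interval -1.16 to 1.71, FDR 0.946).

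Adora2a, the adenosine receptor gene of indirect-pathway neurons, showed the widest spread of the 9. Levels were 34.0, 58.2 and 318 CPM (lowest, median, highest) in CIE rats and 9.81, 38.3 and 400.4 CPM in Control rats. Control rat 10 had 40.8 times the level of Control rat 8, so that the extremes of all 12 rats lay within the untreated group. Control rat 12 was nearly as low as rat 8, at 10.5 CPM, whereas no CIE rat fell below 34.0 CPM. The log2 fold change was 0.27 (SE 0.85, 95% interval -1.54 to 2.09, FDR 0.958), an interval of 0.344 to 4.25 times the Control level.

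Ppp1r1b encodes the protein phosphatase inhibitor through which dopamine and adenosine signals converge in projection neurons. CIE rats ranged from 132 over a median of 226 to 1259 CPM, and Control rats from 51.4 over 156 to 1454 CPM. Control rat 10 was at 10.8 times and CIE rat 2 at 5.58 times the median of the rest of their groups. The group difference was 0.21 on the log2 scale (SE 0.78, FDR 0.967).

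Rgs9, a regulator that shortens signalling by G proteins behind dopamine receptors, ranged from 46.0 over a median of 65.9 to 399 CPM in CIE rats and from 32.8 over 50.2 to 390.3 CPM in Control rats. Here CIE rat 2 was the highest of the 12, just above Control rat 10, and CIE rat 4 followed at 141 CPM. The other 9 rats did not exceed 79.7 CPM. Its group difference was 0.27 on the log2 scale (SE 0.68, FDR 0.947).

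Among the transcription factor genes, Foxp1 and Bcl11b followed the same rats with a smaller amplitude. Foxp1 ranged from 39.9 over a median of 54.7 to 188 CPM in CIE rats and from 32.3 over 40.2 to 196 CPM in Control rats, with a log2 fold change of 0.25 (SE 0.50, FDR 0.932). Bcl11b, which encodes CTIP2, ranged from 89.5 over a median of 136 to 244 CPM in CIE rats and from 69.9 over 116 to 266 CPM in Control rats, with a log2 fold change of 0.17 (SE 0.33, FDR 0.932). For Bcl11b the rats formed no gap, since CIE rat 1 at 173 CPM lay close to CIE rat 4 at 205 CPM.

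Foxp2 did not share this order. It ranged from 30.4 over a median of 56.3 to 76.7 CPM in CIE rats and from 28.8 over 46.6 to 77.8 CPM in Control rats, and its highest level was in Control rat 12, a rat with low Drd2 and Adora2a. CIE rat 2 and Control rat 10 lay at 61.1 and 60.8 CPM, within the range of the others. CIE rat 4, however, was the highest of its group, at 76.7 CPM. The log2 fold change was 0.17 (SE 0.24, 95% interval -0.34 to 0.69). FOXP2 is a transcription factor that intercalated cells of the amygdala and direct-pathway neurons are known to contain.

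Drd3 encodes a receptor of the D2 family that is known from the ventral striatum and the islands of Calleja. It was lowest in the 3 rats in which most of the other members were highest. It was counted 23 to 174 times per library, or 0.38 to 2.15 CPM in CIE rats (median 1.08) and 0.62 to 1.67 CPM in Control rats (median 1.04). CIE rat 2 was the lowest of all 12 rats, at 0.335 times the median of the rest of its group, and Control rat 10 (0.62 CPM) and CIE rat 4 (0.64 CPM) came next. The log2 fold change was 0.11 (SE 0.36, 95% interval -0.67 to 0.88, FDR 0.962), and its counts were the lowest of the 9.

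The spread between rats within groups was expressed as the biological coefficient of variation (BCV), edgeR's estimate of the relative SD between rats beyond counting noise. It was 0.943 for Adora2a, 0.880 for Ppp1r1b, 0.771 for Rgs9, 0.764 for Drd2, 0.630 for Drd1 and 0.579 for Foxp1. These 6 genes lay above the 90th percentile of all genes tested, 0.449, and the median of all genes was 0.169. Drd3 (0.434), Bcl11b (0.392) and Foxp2 (0.290) lay below that percentile. Scarce genes tend to have a larger BCV, so each gene was also set beside genes within a factor of 2 of its mean CPM. Of 835 such genes 0 had a larger BCV than Ppp1r1b, and 2 of 3721 had a larger one than Adora2a, 10 of 5076 than Drd1 and 5 of 4585 than Drd2. For Bcl11b the number was 32 of 2903, for Foxp2 134 of 5383 and for Drd3 490 of 2989. Adora2a ranked at place 78 and Ppp1r1b at place 118 of all 20944 genes. When CIE rats 2 and 4 and Control rat 10 were left out, a choice made after the values were seen, 1 member rather than 6 lay above the 90th percentile.

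**Figure D2:**
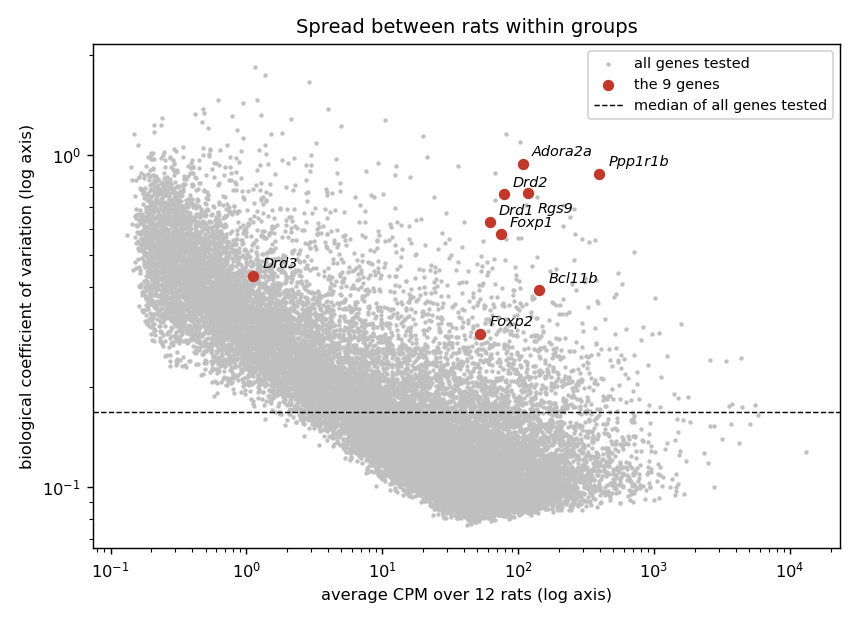
Biological coefficient of variation within groups against average CPM, both on log axes, for all 20944 genes tested (grey) and the 9 members (red), with a dashed line at the median of 0.169. Adora2a and Ppp1r1b sit at the upper edge of the cloud, and Bcl11b and Foxp2 lie lower but still above most genes of like abundance (32 of 2903 and 134 of 5383 were higher).

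Most of the members varied together from rat to rat. For the 21 pairs among Drd1, Drd2, Adora2a, Ppp1r1b, Rgs9, Foxp1 and Bcl11b, Pearson's r of log2 CPM over the 12 rats was 0.90 to 0.99 and Spearman's rho 0.82 to 0.99, with adjusted permutation p of at most 0.000154 and 0.00350 (Benjamini-Hochberg over all 36 pairs of members, two-sided; the smallest raw p the permutations can give is 1e-05). The 3 closest pairs were Rgs9 with Foxp1 (r = 0.99), Drd1 with Rgs9 (r = 0.99) and Adora2a with Ppp1r1b (r = 0.98). Without the 2 rats farthest from the median, CIE rat 2 and Control rat 10 for all 21 pairs, r was 0.79 to 0.97. It was 0.63 to 0.96 over the 9 rats other than 2, 4 and 10, where 18 of the 21 pairs kept an adjusted permutation p below 0.05. Drd1 with Drd2 was among the 3 that did not (r = 0.65, adjusted permutation p = 0.151). Within CIE the 21 pairs had r of 0.82 to 0.99 and within Control 0.93 to 0.99. All values of a rat share the library and its total, so a shift in composition moves all of them.

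Drd3 was negatively correlated with the others. Its 3 lowest values of r were with Drd1 (-0.78), Rgs9 (-0.75) and Foxp1 (-0.71). Of its 8 pairs, 7 had an adjusted permutation p below 0.05 by Pearson's r but 1 by Spearman's rho, that with Adora2a (rho = -0.68, adjusted permutation p = 0.0312). Over the 9 rats other than 2, 4 and 10, r of these 8 pairs was -0.30 to 0.21 and 0 passed, so the relation rested on those rats. Foxp2 had r of -0.51 to 0.46 with the other 8 members and passed in 0 pairs.

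**Figure D3:**
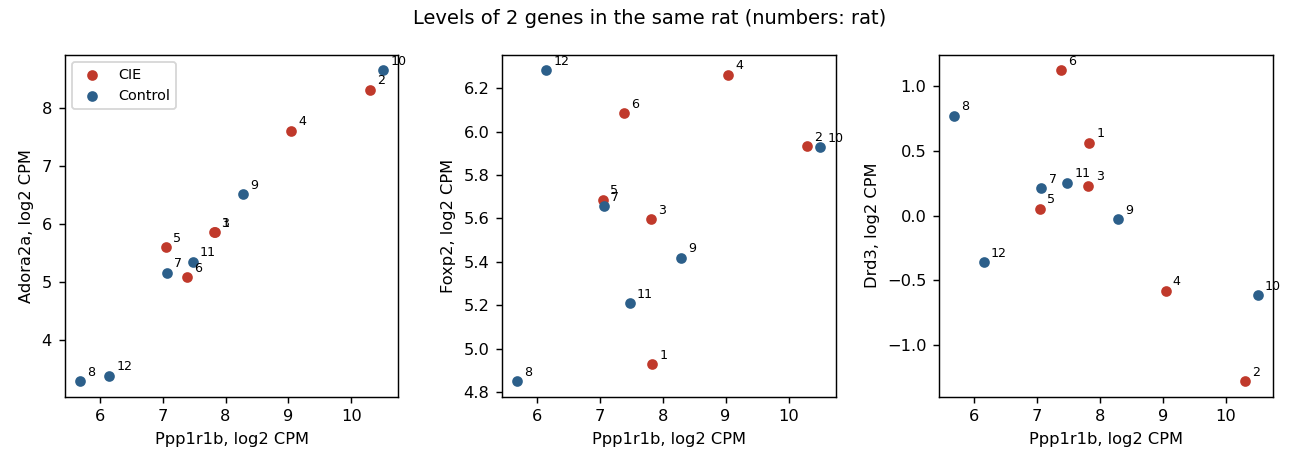
Log2 CPM of Adora2a, Foxp2 and Drd3 (vertical axes) against Ppp1r1b (horizontal axes), a point per rat, CIE in red, Control in blue, numbered by rat. Adora2a follows Ppp1r1b through the whole range (r = 0.98), Foxp2 shows no such line, and Drd3 is lowest in rats 2, 4 and 10.

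Ratios of counts within a rat do not depend on the library total. These were chosen after the values were seen. The ratio of Drd2 to Drd1, that is of the indirect to the direct pathway receptor, ran from 0.952 to 1.61 in CIE and from 0.576 to 1.36 in Control rats, 2.79-fold over all 12, although each receptor alone varied by 9.29-fold and more. In CIE rat 2 it was 1.44 and in Control rat 10 it was 1.36, so both receptors were high together in these punches. The ratio of Adora2a to Drd1 varied most, from 0.893 to 2.53 in CIE and from 0.336 to 2.16 in Control rats. Between groups the log2 ratio differed by 0.73 for Adora2a to Drd1 (exact permutation p = 0.173, adjusted 0.421 over 4 ratios, two-sided) and by 0.20 for Drd2 to Drd1 (exact permutation p = 0.439). The ratios of Ppp1r1b and Rgs9 to Drd1 differed by 0.44 (exact permutation p = 0.227) and 0.18 (exact permutation p = 0.316). The direction was that of CIE above Control in all 4, and none passed. The 4 ratios share Drd1 and their other genes varied together, so they are not independent.

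Most listed genes of striatal projection neurons went with the same rats. Among 20 genes shared by striatal projection neurons, 18 had CIE rat 2 and Control rat 10 as their 2 highest rats, and 18 had rats 2, 4 and 10 as their 3 highest, against 8.86% and 6.05% of all genes tested. These rats were picked from the members' own values, in 7 of 9 of which they are on top. The summed level of these 20 genes was 6387 CPM in CIE rat 2, 3452 CPM in CIE rat 4 and 6784 CPM in Control rat 10, and 1238 to 2148 CPM in the other 9 rats. Of 3 indirect-pathway genes that were tested, 2 had rats 2 and 10 as the 2 highest (not Sp9) and 3 had rats 2, 4 and 10 as the 3 highest. Gpr6, an orphan receptor of indirect-pathway neurons, reached 78.7 CPM in CIE rat 2 and 78.0 CPM in Control rat 10, against 2.18 to 33.8 CPM elsewhere. Penk, the enkephalin precursor gene, reached 1267 and 1658 CPM in these rats, 1124 CPM in CIE rat 4 and 267 to 761 CPM in the other 9 rats. Gpr52 had 0 counts in all 12 rats and was not tested. Of 7 direct-pathway genes, 4 had rats 2 and 10 as the 2 highest and 3 had rats 2, 4 and 10 as the 3 highest. Isl1, Ebf1 and Sfxn1 had neither.

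No difference with CIE was detected for these genes either. Of the 7 direct-pathway, 3 indirect-pathway and 20 shared genes tested, 0 had a nominal p below 0.05 in edgeR and 0 passed 5% FDR, beside 8.31% and 0.363% of all genes. DESeq2 gave 0 at both thresholds, and limma-voom gave Gpr6 and Rgs7bp at the nominal one. The genes of smallest p in the direct-pathway list were Isl1 (log2 fold change -0.27, SE 0.17, FDR 0.744) and Ebf1 (-0.15, SE 0.16, FDR 0.855), both transcription factors. In the indirect-pathway list they were Gpr6 (0.49, SE 0.89, FDR 0.927) and Penk (0.18, SE 0.43, FDR 0.943), and in the shared list Zfp503 (-0.16, SE 0.14, FDR 0.821) and Rgs7bp (0.33, SE 0.33, FDR 0.853), the latter an anchor of RGS proteins. Median log2 fold changes were -0.07, 0.18 and 0.18 for the 3 lists, against 0.00 over all genes.

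Genes of dopamine supply did not follow the receptors. Of 7 genes for dopamine synthesis, transport and breakdown, 0 had rats 2 and 10 on top. Their summed level was lowest in Control rat 10 (146 CPM), CIE rat 4 (162 CPM) and CIE rat 2 (166 CPM), and lay between 170.0 and 187 CPM in the other 9 rats. Th, which encodes the rate-limiting enzyme of dopamine synthesis, had a nominal p below 0.05 (beside 8.31% of all genes tested), and the other 6 did not. It was at 1.60 to 4.32 CPM in CIE and 2.38 to 5.34 CPM in Control rats. Its log2 fold change was -0.62 (SE 0.26), it did not pass 5% FDR (FDR 0.550), and the groups overlapped. Slc6a3, the dopamine transporter gene, was counted 0 to 75 times per library.

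Of 10 family relatives of the members that were tested, 2 had CIE rat 2 and Control rat 10 on top, beside 8.86% of all genes tested. In edgeR 2 had a nominal p below 0.05, both higher in CIE, beside 8.31% of all genes tested, and 0 passed 5% FDR in edgeR, DESeq2 or limma-voom. At the nominal threshold DESeq2 also gave Rgs7 and Adora2b, whereas limma-voom gave Rgs7 and Adora1. Rgs7 was at 72.2 to 92.6 CPM in CIE and 64.7 to 74.0 CPM in Control rats, a log2 fold change of 0.20 (SE 0.07, FDR 0.359). Adora2b was at 6.25 to 10.2 CPM in CIE and 5.24 to 7.73 CPM in Control rats, a log2 fold change of 0.30 (SE 0.12, FDR 0.534). Drd5, the other receptor of the D1 family, was at 1.52 to 3.11 CPM in CIE and 1.75 to 3.20 CPM in Control rats, with a log2 fold change of -0.25 (SE 0.22, FDR 0.825). Drd4 had 0 to 8 counts and was below the filter.

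**Figure D4:**
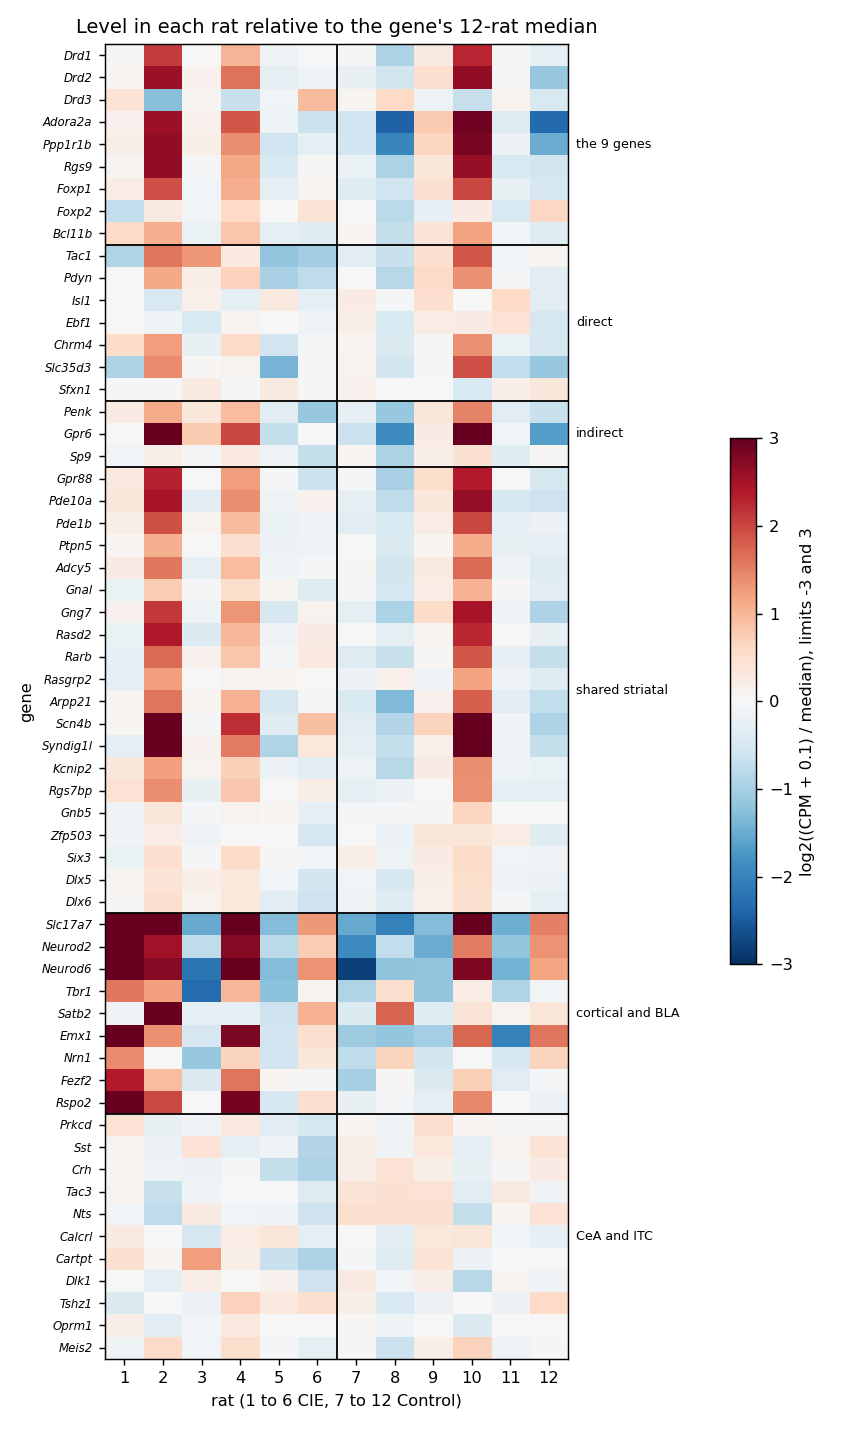
Level of the 9 genes and of genes in 5 lists in each rat, as log2 of CPM plus 0.1 relative to the gene's median over the 12 rats, red above and blue below. The columns of rats 2 and 10, and to a lesser degree of rat 4, are red for most genes of the striatal lists. In the direct-pathway list Isl1 is below its median in CIE rats 2 and 4, Ebf1 in CIE rat 2 and Sfxn1 in rats 2, 4 and 10. The cortical list is also red in CIE rat 1. In the CeA list Meis2 is red in rats 2 and 10 while Nts, Oprm1, Tac3 and Dlk1 are blue there. Calcrl is above its median in Control rat 10, and Oprm1 in CIE rat 4.

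Markers of other cell types were set beside these results. All 11 listed genes of CeA and intercalated neurons were detected in every rat, with a summed level of 600 to 889 CPM in CIE and 673 to 904 CPM in Control rats. Of the 11, 1 (Meis2, also a striatal gene) had rats 2 and 10 as the 2 highest and 2 (Nts and the opioid receptor gene Oprm1) had them as the 2 lowest, which is the case for 5.81% of all genes tested. Nts was at 18.7 CPM in CIE rat 2 and 19.4 CPM in Control rat 10, and Oprm1 at 71.3 and 66.4 CPM. Tac3 was lowest of all in CIE rat 2 (24.6 CPM), Dlk1 lowest of all in Control rat 10 (41.8 CPM), and Crh, Sst and Tac3 were lowest of their group in Control rat 10. Of the 11 genes, 3 had a nominal p below 0.05 (beside 8.31% of all genes tested), all lower in CIE, none past 5% FDR. These were the neuropeptide genes Crh (-0.45, SE 0.17, FDR 0.472), Tac3 (-0.37, SE 0.15, FDR 0.542) and Nts (-0.46, SE 0.21, FDR 0.584). The 3 GABAergic genes summed to 1268 to 1661 CPM in CIE and 1396 to 1690 CPM in Control rats, and the 4 general neuronal genes to 1605 to 1973 and 1679 to 1866 CPM. The GABAergic sum in rats 2, 4 and 10 lay within the range of the other rats. The general sum was highest of the 12 in CIE rat 4 (1973 CPM) and in CIE rat 2 next (1877 CPM), and lowest of the Control rats in rat 10 (1679 CPM). Of its 4 genes, Rbfox3 had rats 2 and 10 as the 2 highest (244 and 237 CPM) and Stmn2 had them as the 2 lowest (235 and 229 CPM). The smallest p of the GABAergic genes was that of Slc32a1 (-0.16, SE 0.09, FDR 0.701), and of the general ones that of Stmn2 (-0.17, SE 0.10, FDR 0.724).

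Genes of cortical and basolateral glutamatergic neurons did vary with rat. Their summed level was 466, 233 and 302 CPM in CIE rats 1, 2 and 4 and 172 CPM in Control rat 10, and 17.0 to 76.7 CPM in the other 8 rats. Slc17a7, the vesicular glutamate transporter of these neurons, was at 348 CPM in CIE rat 1, 161 in CIE rat 2, 223 in CIE rat 4 and 130.1 in Control rat 10. It was at 37.2 CPM in CIE rat 6, 43.3 CPM in Control rat 12 and 3.66 to 6.13 CPM in the other 6 rats. CIE rat 1 had the highest Slc17a7 of all, but its Drd1 was 36.7, its Drd2 41.3 and its Adora2a 58.2 CPM, all near the group median. Ppp1r1b (227 CPM), Rgs9 (67.4 CPM) and Foxp1 (57.4 CPM) of that rat were near it too. Its Bcl11b (173 CPM) and Drd3 (1.45 CPM) were above the group medians of 136 and 1.08 CPM. Its Foxp2 was the lowest of the group, at 30.4 CPM. A correlation of Slc17a7 with each member had been planned, but it was not computed because the rats fell into separate clusters of Slc17a7. Rats 2, 4 and 10 also stood apart for most members, whose correlations with each other are given with and without those rats. Of the 9 cortical genes all 9 had positive log2 fold changes (median 1.62). Of them 3 had a nominal p below 0.05 and 0 passed 5% FDR, beside 8.31% and 0.363% of all genes tested. The 3 were Rspo2 (1.74, SE 0.60, FDR 0.403), Fezf2 (1.22, SE 0.47, FDR 0.476) and Neurod2 (1.90, SE 0.84, FDR 0.575).

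Genes of myelinating oligodendrocytes had 0 of 7 members with CIE rat 2 and Control rat 10 on top. Their sum was 5450 to 13188 CPM in CIE and 8296 to 15562 CPM in Control rats. Of the 7 genes 7 had a nominal p below 0.05 (beside 8.31% of all genes tested), all lower in CIE. Past 5% FDR there were 0 in edgeR and 2 each in DESeq2 and limma-voom. In edgeR the 7 genes included Cnp (-0.64, SE 0.17, FDR 0.188), Mal (-0.56, SE 0.17, FDR 0.279) and Mag (-0.60, SE 0.20, FDR 0.366). The part of these other cell types in the members' values was not tested.

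The genes whose level was most like that of each member, among 16890 genes with a mean of at least 1 CPM and with group means removed, were found by Pearson's r over the 12 rats. For Drd1 they were LOC102551038, Gabrd and Lrrc10b (0.99 each), and for Drd2 they were Pmepa1 (0.99), Gng7 (0.98) and Pabpc1 (0.98). Adora2a had Ppp1r1b (0.98), Kcna4 (0.98) and Mctp1 (0.97), and Ppp1r1b had Arpp21, Gpr6 and Lrrc10b (0.99 each). Rgs9 had Ptpn5, Pde1b and LOC102551038 (0.99 each), Foxp1 had Ubtd2, Gng7 and Pde10a (0.99 each), and Bcl11b had Fam212b (0.99), Ski (0.98) and Jph4 (0.98). Of these, Gng7, Arpp21, Gpr6, Ptpn5, Pde1b and Pde10a were already on the striatal lists. Drd3 (Ankrd34b 0.95, Ppp2r3c 0.94, Grb14 0.93) and Foxp2 (Tiprl 0.91, Kif9 0.91, Tshz1 0.90) had other neighbours at lower r. Tshz1 is a factor of intercalated cells of the amygdala.

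Leaving out a single rat moved the members' group differences by more than their size. Without CIE rat 2, 2 of 9 log2 fold changes stayed above 0 (those of Drd3 and Foxp2) and their median was -0.32. Without Control rat 10, all 9 were above 0, their median was 0.93 and 6 members had a nominal p below 0.05, namely Drd1 (0.90), Drd2 (1.30), Adora2a (1.65), Ppp1r1b (1.50), Rgs9 (1.34) and Foxp1 (0.93). In that fit 11.4% of all genes had a nominal p below 0.05, and the smallest FDR of a member was 0.348. Without CIE rats 2 and 4 and Control rat 10 together, all 9 were above 0 with a median of 0.20, 0 members had a nominal p below 0.05 and the smallest FDR was 0.913. With limma-voom and sample quality weights the median was 0.67 and 8 of 9 were above 0. No member passed 5% FDR in any of the 22 fits.

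**Figure D5:**
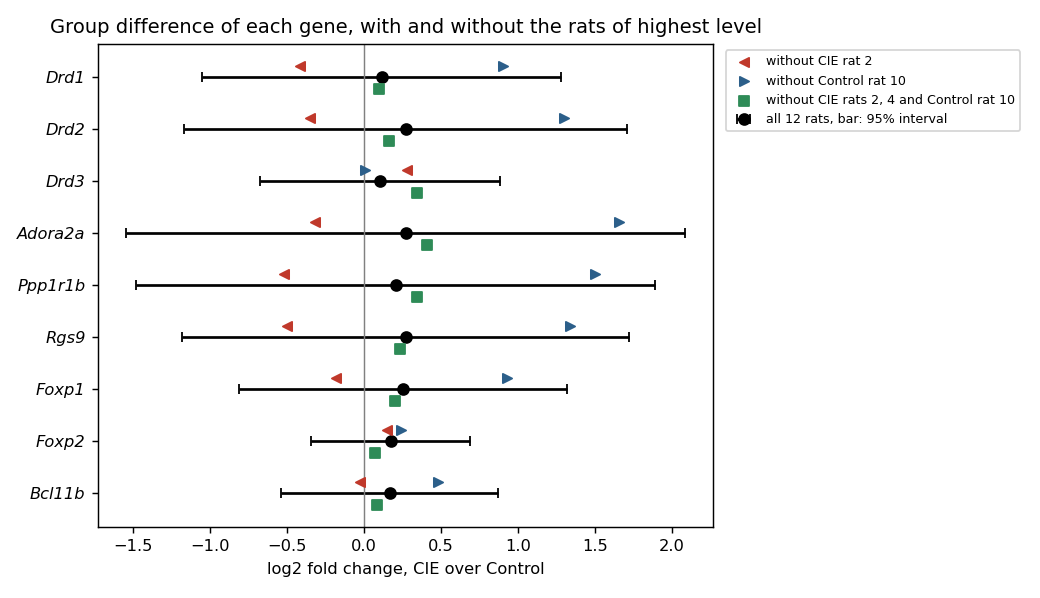
Log2 fold change of CIE over Control for each of the 9 genes with all 12 rats (black, bar for the 95% interval), without CIE rat 2 (red), without Control rat 10 (blue) and without CIE rats 2 and 4 and Control rat 10 (green). All 9 intervals include 0, and leaving out rat 2 or rat 10 moves the estimates to opposite sides for 7 genes, all but Drd3 and Foxp2.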

How the data were processed

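Poly-A RNA from 1 CeA punch per rat was sequenced in paired-end mode. The authors mapped reads to Rnor_6.0 with BWA and deposited raw read counts per gene made with HTSeq. The gene annotation and the settings for strand and overlap are not given in the sources used here, so reads of overlapping or antisense genes could not be separated. Groups follow the treatment label. The sample titles carry the same suffix in both groups and were not used for grouping. The rats are numbered in group order, so the numbers pair no rats and an effect of that order cannot be told apart from CIE. Each library is a different rat.

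The 9 members and the 10 gene lists were chosen with earlier results of these data known. Members were matched by symbol. Of 84 listed genes, 83 were found, 1 of them as a synonym (Tac2 as Tac3). Named from a list were the genes with a nominal p below 0.05, at most 4 of smallest p, or else the 2 of smallest p, and 1 gene that this rule names is not reported here. Gpr6, Penk, Isl1, Ebf1 and Gpr52 among the values by rat were named after their values were seen. The same holds for Slc6a3, Drd4, Drd5, Adora1, Sfxn1, Sp9, Meis2, Oprm1, Dlk1, Sst, Calcrl, Prkcd and Rbfox3.

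Counts were fitted in R 4.3.3 with edgeR 4.0.16 (TMM factors of 0.948 to 1.03, filterByExpr, no covariates, two-sided), with Benjamini-Hochberg adjustment over all 20944 genes tested. A nominal p is unadjusted, and the threshold was 0.05 for both. CPM were scaled by the library total multiplied by its TMM factor, and correlations used edgeR's log2 CPM on that scale with a prior count of 2. The fit was tested on simulated data. Alternatives were size factors of DESeq2, plain library sizes, all genes without a filter, a minimum of 10 counts in each library, the DESeq2 1.42.0 test, limma-voom 3.58.1 with sample quality weights, 1 surrogate variable (sva 3.50.0), a cortical marker score as covariate and leaving out each of the 12 rats. Leaving out 3 rats together was added after the values were seen. The submitters' processing notes name DESeq2 1.26, whose results were not used. Counting error is small at these depths except for Drd3. RefSeq windows are from GRCr8, not the build of the counts, and no gene coordinates are given.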

Additional observations from a re-analysis of the deposited data

Results flagged for a closer look

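In each group of 6 rats, the highest or lowest level of a member was called far from the others when its gap to the nearest rat, divided by the group's range, exceeded Dixon's 95% critical value. Of 18 tests on the 9 members, 9 were positive. The criterion's rate of about 1 in 20 by chance holds for normally distributed values, and these CPM were not log-transformed. The share of all genes past the criterion was not computed. Rats 2 and 10 were the 2 highest in 8.86% of all genes tested. The 18 tests are also not independent, since the same rats recur. All 9 concerned the highest rat of a group, either CIE rat 2 or Control rat 10.

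In Control rat 10 the levels were 185 CPM for Drd1, 251 CPM for Drd2, 400.4 CPM for Adora2a, 1454 CPM for Ppp1r1b, 390.3 CPM for Rgs9 and 196 CPM for Foxp1. In CIE rat 2 they were 164 CPM for Drd1, 1259 CPM for Ppp1r1b and 399 CPM for Rgs9. Drd2, Adora2a and Foxp1 of CIE rat 2 were also the highest of their group but not past the criterion, where CIE rat 4 lay between. Drd3, Foxp2 and Bcl11b had no such rat.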

How the results depend on the processing

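No member passed 5% FDR under any alternative. Of the members' 189 log2 fold changes under the alternatives, 164 kept their direction and 25 reversed. None of the 25 was past either threshold. Among the 164, 6 had a nominal p below 0.05, all in the fit without Control rat 10. With CIE rats 2 and 4 and Control rat 10 left out, 34 genes passed 5% FDR rather than 76 and 1 member rather than 6 exceeded the 90th percentile of the spread. At 5% FDR, DESeq2 called 266 genes, limma-voom with quality weights 234 and the fit with the cortical marker score 44. At a nominal p below 0.05, limma-voom called 3596 genes rather than 1740. The cause of these shifts was not tested.

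With 1 surrogate variable the log2 fold changes became -0.12 for Drd1, -0.030 for Drd2, -0.030 for Rgs9, -0.0092 for Foxp1 and -0.072 for Bcl11b. This variable was -0.58 in Control rat 10, -0.51 in CIE rat 2 and -0.28 in CIE rat 4, and -0.076 to 0.34 in the other rats. In that fit the BCV of every member was lower, for instance 0.109 for Foxp1, 0.157 for Drd1, 0.151 for Rgs9 and 0.374 for Adora2a. The variable was estimated from the levels of all genes tested, the members included, so the lower BCV is not independent of it. With the cortical marker score as covariate the log2 fold changes became -0.35 for Drd1, -0.34 for Drd2, -0.33 for Adora2a, -0.41 for Ppp1r1b, -0.36 for Rgs9, -0.25 for Foxp1 and -0.23 for Bcl11b. With limma-voom they became -0.21 for Drd3, 0.59 for Drd1, 0.90 for Drd2, 1.47 for Adora2a (FDR 0.314), 1.07 for Ppp1r1b, 0.82 for Rgs9, 0.67 for Foxp1, 0.24 for Foxp2 and 0.45 for Bcl11b, a median of 0.67 against 0.21 in edgeR.

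Leaving out 1 rat at a time, genes past 5% FDR were 34 (without Control rat 9) to 154 (without CIE rat 6), genes with a nominal p below 0.05 were 1347 (without Control rat 9) to 2811 (without CIE rat 3), and members with a nominal p below 0.05 were 0 to 6, the 6 without Control rat 10. Log2 fold changes ranged from -0.41 to 0.90 for Drd1, -0.35 to 1.30 for Drd2, -0.18 to 0.31 for Drd3, -0.32 to 1.65 for Adora2a, -0.52 to 1.50 for Ppp1r1b, -0.50 to 1.34 for Rgs9, -0.18 to 0.93 for Foxp1, 0.06 to 0.35 for Foxp2 and -0.023 to 0.48 for Bcl11b. The low end was without CIE rat 2 for all except Drd3 (without CIE rat 6) and Foxp2, and the high end without Control rat 10 for all except Drd3 and Foxp2. Without Control rat 8 or 12, Drd1 (-0.062 and -0.016) and Ppp1r1b (-0.020 and -0.0099) also fell below 0. The count of 28 correlated pairs out of 36 was 28 with group means removed and with DESeq2's size factors. No paired analysis was possible because the replicate numbers run through both groups and none is shared.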
